A study of Setaria viridis with 26 samples.

Results

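The genes described here are the 98 most strongly connected genes of the cyan module, out of 621 cyan genes and 25298 genes in the wild-type co-expression network of *Setaria viridis*, a small grass used as a model for cereal inflorescences. They were chosen by their weights in that network. For each cyan gene, the weights of its listed edges to other cyan genes were summed to give its connectivity, and the 100 genes with the highest sums were kept. Of 3 loci set aside in advance by the selection, 2 lay among those 100 and were removed, and these loci are not described. Since the weights selected the genes, the connectivity values below describe the selection and were not tested.

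The study profiled inflorescence primordia of *Svful2* mutants, which lack a functional copy of the MADS-box transcription factor gene *SvFul2*, at 9-10, 15 and 21 days after sowing (DAS), and of wild-type plants at 8-9, 10-11 and 17 DAS. Each group held 4 RNA samples, 12 from *Svful2* and 12 from wild-type plants of the accession A10.1, and 2 further samples were *Svful2* DNA used to find the mutation. The authors' network rests on wild-type plants only, those of this study joined with an earlier series. No *Svful2* sample therefore entered any value below, and the files used hold no column for a single sample, so the depth behind each weight is unknown and a weight carries no replicate error.

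A co-expression network joins genes whose transcripts go up and down together across samples. The weight used here, the topological overlap, is high when 2 genes are correlated with each other and also share the same partners. In a signed network such as this, genes that move in the same direction are joined and genes that move in opposite directions are not. A module is a set of genes with high overlap, named by an arbitrary colour, and its most connected genes follow the shared pattern most closely. A weight says nothing about which gene acts on which, and in whole primordia a larger share of cells expressing a gene cannot be told apart from more transcript per cell. In grass inflorescences, such patterns run through the change from leaf to flower production, through branching, and through the acquisition of determinacy, when a meristem stops making new axes and forms a spikelet.

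The core ranged from 67.3 in summed weight for Sevir.7G183600 to 41.8 for Sevir.9G152800, with a median of 50.1. The other 523 cyan genes had a median of 16.5. The edge of the core was not a step in connectivity. Sevir.8G082401 and Sevir.9G152800, the last genes kept, had sums of 42.3 and 41.8, and Sevir.1G342100 and Sevir.1G365400, the first genes beyond the limit, had 41.7 and 41.7. The core genes were thus the top end of a continuous slope, as the ranked plot of summed weights shows. A core gene was linked to between 553 and 610 of the 620 other cyan genes, with a median of 589, against a median of 338 for the other cyan genes.

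**Figure D1:**
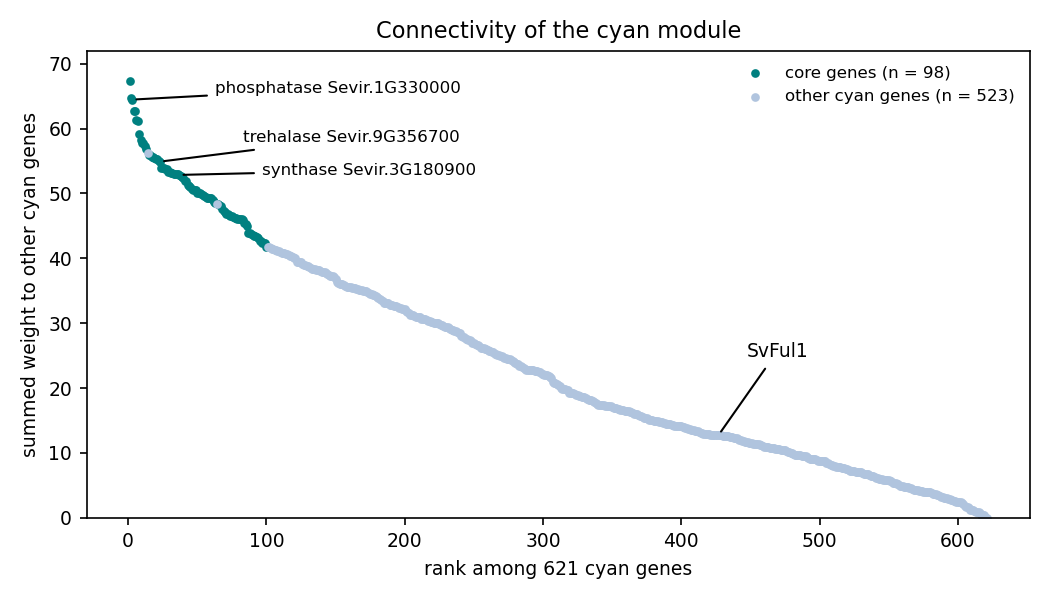
Summed weight of each cyan gene to the other cyan genes (y axis, no unit) against its rank among the 621 cyan genes (x axis), with the 98 core genes in teal and the other 523 in pale blue. The core genes lie between 41.8 and 67.3, with no gap at the edge of the core, and *SvFul1* lies far down the slope at rank 427.

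All 4753 possible pairs of core genes were listed as edges. Their weights ran from 0.0755 to 0.231 with a median of 0.143, so that even the weakest core pair lay well above 0.02, the lowest weight listed. Between the core and the other cyan genes, 93.9% of pairs were listed with a median weight of 0.0711. Among the other cyan genes, 50.6% of pairs were listed with a median weight of 0.0400.

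For comparison, the 100 most connected genes were taken in each of the 26 modules in the same way, or the whole module in 3 that hold only 70 to 91 genes. A fixed 100 is a smaller part of a larger module, 100 of 3909 genes in turquoise against 100 of 621 in cyan. Module size therefore still bears on the ranks below. The median weight among the 100 of cyan was 0.143, rank 9 of the 26 modules, whereas cyan was rank 14 by number of genes. The 8 modules with a heavier centre were all larger, with 936 to 3909 genes. Of the 17 modules with a lighter centre, 5 were larger than cyan, and 3 were those taken whole. Midnightblue, close to cyan in size with 548 genes, had a median of 0.110.

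Within the core the weights were graded rather than divided. In the heatmap ordered by average linkage, weights rose smoothly towards one corner, and the first division of the tree set apart only 2 genes, Sevir.8G082401 and Sevir.9G152800, from the other 96. These are also the last genes of the core by connectivity. At the other end, Sevir.7G183600 had the highest median weight to the rest of the core, at 0.185, and it was the heaviest partner of 28 of the 98 genes. Sevir.2G209800 was the heaviest partner of 18.

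**Figure D2:**
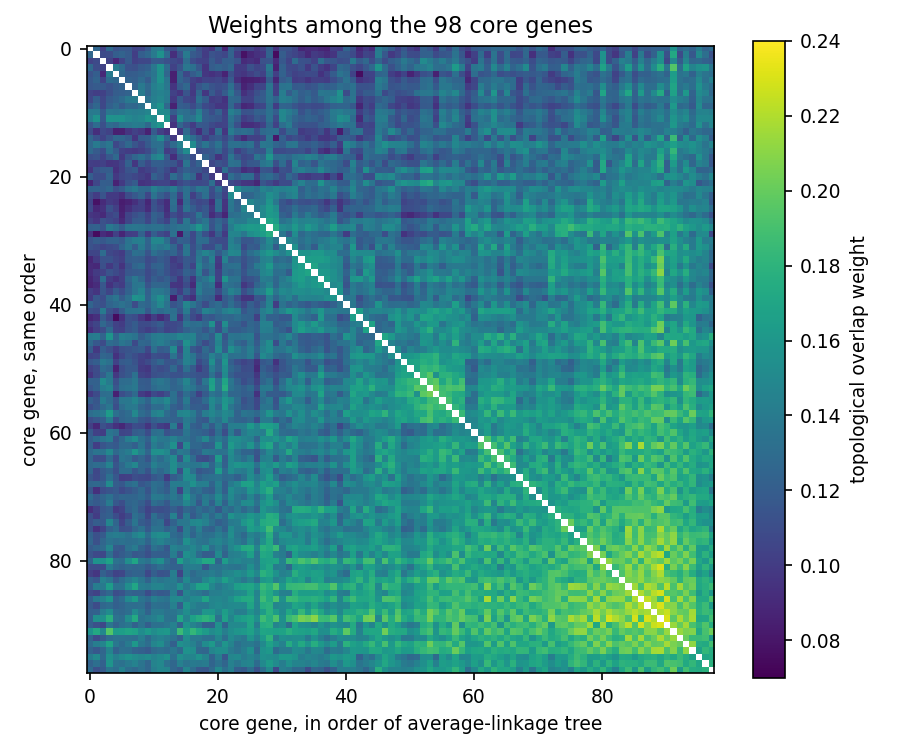
Topological overlap weight (colour, no unit) between every pair of the 98 core genes, in the order of an average-linkage tree on both axes. Weights run from 0.0755 to 0.231 in a gradient towards the lower right corner, without separate blocks.

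The 5 heaviest edges of the core met in a few genes. Sevir.7G183600, annotated by its GO terms as a nuclear DNA-binding regulator of transcription, was joined to Sevir.9G232433 at 0.231, to Sevir.9G041600 at 0.230, to Sevir.2G437800 at 0.230 and to Sevir.9G065300 at 0.229. Sevir.7G029200 was joined to Sevir.9G232433 at 0.229. Sevir.9G041600 carries terms for dimethylallyl transfer to adenine nucleotides, the first committed step in the making of cytokinins, the hormones that sustain shoot meristems. Sevir.7G029200 is annotated as a serine carboxypeptidase, a protein-cutting enzyme. Sevir.9G065300 is annotated to lipid breakdown, and Sevir.9G232433 carries only 2 terms, both for transcription.

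The 10 genes of highest connectivity were mostly predicted regulators and enzymes. Sevir.7G183600 led, with a connectivity of 67.3. Sevir.2G209800, a C2H2 zinc finger gene with terms for floral organ identity and carpel development, had 64.7, and Sevir.2G222600, another zinc finger gene, had 61.2. Sevir.1G330000, whose reciprocal best hit in Arabidopsis is a trehalose-6-phosphate phosphatase (AT1G35910), had 64.5. Sevir.9G095600, annotated to transcription and to auxin signalling, had 62.8. Sevir.8G175000, annotated as a transcription factor of brassinosteroid signalling, had 59.1. Sevir.5G241500, a cytochrome P450 annotated to brassinosteroid metabolism, had 57.8. Auxin and brassinosteroids are growth hormones with known roles in placing and shaping lateral organs. Sevir.7G029200 and Sevir.5G017800, both annotated as serine peptidases, had 62.7 and 58.3. Sevir.3G061066, annotated to chromatin organization and transcription, had 61.3.

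Trehalose metabolism was represented by all 3 of its steps. Trehalose-6-phosphate (T6P) is a sugar signal that reports sucrose supply to growing tissue. It is made by T6P synthase, converted to trehalose by T6P phosphatase, and trehalose is split by trehalase. T6P synthase is needed for flowering on time in Arabidopsis, and the maize branching gene *ramosa3* encodes a T6P phosphatase, which limits the branching of the inflorescence. This set of genes was singled out after the values were seen, so that its counts are a description. The core held 5 genes annotated to these enzymes, 5.10% of the 98, against 1 of the other 523 cyan genes (0.191%) and 13 of the 24677 genes of other modules (0.0527%). The count depended on the ranking by weight within cyan. When edges to all modules were summed instead, Sevir.1G330000 alone of the 5 stood among the 100 highest cyan genes, with a sum of 386 against 177 to 209 for the others.

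The phosphatases of the core were Sevir.1G330000, Sevir.2G407500 and Sevir.4G091700, with connectivities of 64.5, 53.2 and 53.1 and ranks of 3, 30 and 31. The network held 12 genes annotated to T6P phosphatase activity, 4 of them in cyan. The fourth, Sevir.6G146700, was at rank 205 and outside the core, and it was linked to all 98 core genes with a median weight of 0.109. Of all pairs between core and other cyan genes, 93.9% were listed, with a median of 0.0711. The synthase was Sevir.3G180900, at rank 37, with Arabidopsis *TPS1* (AT1G78580) as its reciprocal best hit. It was the only one of 9 annotated synthase genes in the network that was assigned to cyan. The trehalase was Sevir.9G356700, at rank 23, with Arabidopsis *TRE1* (AT4G24040) as its best hit, and it was the only gene annotated to trehalase activity in the GO file.

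These 5 genes were joined by 10 edges, whose median weight was 0.173 within a range of 0.156 to 0.205. The heaviest joined the phosphatase Sevir.1G330000 to the trehalase Sevir.9G356700, at 0.205, and 98.4% of all core pairs were lighter. The lightest joined the phosphatase Sevir.4G091700 to the synthase Sevir.3G180900, at 0.156, and 67.1% of core pairs were lighter. All 5 genes stand among the 50 genes of highest connectivity, where the median weight of a pair was 0.167, against 0.143 over the whole core. Other genes of the pathway were placed elsewhere. Of the 19 annotated genes in the network, the synthase Sevir.6G172300 of the turquoise module was linked to all 98 core genes with a median weight of 0.0662, and 9 genes had no listed edge to any core gene. Of all pairs between the core and turquoise genes, 66.4% were listed, and between the core and all genes outside cyan, 20.2%.

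**Figure D3:**
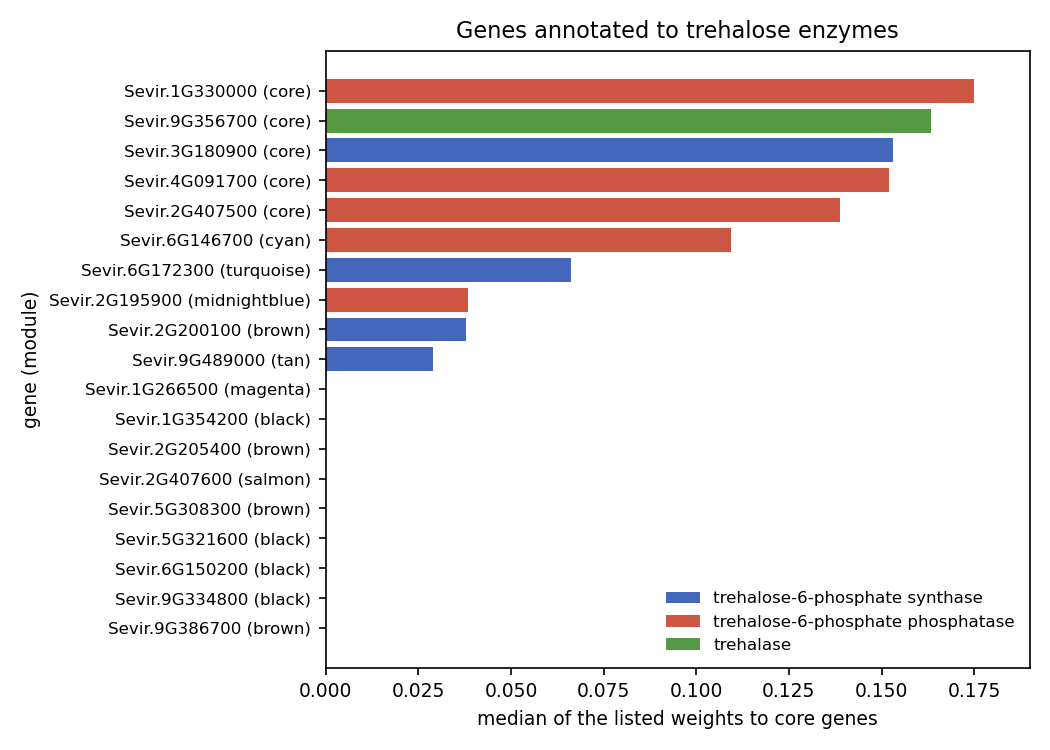
Median of the listed weights to core genes (x axis, no unit) for each of the 19 network genes annotated to a trehalose enzyme, coloured by enzyme, with its module or "core" in brackets. A gene without a bar has no listed edge to the core. The 5 core genes lie highest, the cyan phosphatase Sevir.6G146700 follows at 0.109, and 9 genes have no edge.

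Adjacent phosphatase genes fell apart in the network. Sevir.2G407500 of the core and Sevir.2G407600, which has the next locus number on chromosome 2, are both annotated to T6P phosphatase activity. Sevir.2G407600 was assigned to the salmon module, and of its 696 listed edges none reached a core gene. Of all pairs between the core and salmon genes, 1.22% were listed. The weight between the neighbours was below the listing limit.

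Transcriptional regulators made up the largest of the function groups. By the GO annotation, 24 of the 98 core genes (24.5%) belonged to transcription regulation, against 99 of the other 523 cyan genes (18.9%) and 3606 of the 24677 genes of other modules (14.6%). With only those terms for which the annotation names a source, the order turned, at 6.12% of the core and 7.65% of the other cyan genes. Transcription factor activity itself was annotated to 10 core genes (10.2%), to 37 other cyan genes (7.07%) and to 898 genes of other modules (3.64%).

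Those 10 factors belong to several families. Sevir.9G576100, at rank 42, has Arabidopsis *REVOLUTA* (AT5G60690) as its best hit, a homeodomain-leucine zipper gene that sets the upper side of leaves and helps to form lateral meristems. Sevir.2G437800, at rank 46, is an AP2/ERF gene whose best hits include Arabidopsis *PUCHI* (AT5G18560), and its terms include floral meristem determinacy, inherited from that hit. Sevir.2G336300, at rank 27, is an SBP-box gene with *SPL5* (AT3G15270) as its best hit. SPL genes promote the change to flowering in Arabidopsis as the microRNA miR156 declines. Sevir.7G233300, at rank 67, is a WRKY gene with *WRKY35* (AT2G34830) as its best hit, and Sevir.9G553500, at rank 93, is a basic helix-loop-helix gene (AT5G10570). Sevir.2G375900, at rank 18, is a second AP2/ERF gene. Sevir.4G089100 carries terms for protein folding and heat, and Sevir.3G070400 terms for sigma factor activity and DNA damage. Sevir.9G095600 and Sevir.8G175000 are described above.

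All 45 pairs of these 10 genes were listed. Their median weight was 0.167, with a range of 0.118 to 0.214. The 4 heaviest all included Sevir.9G095600, the auxin-annotated gene of rank 4. Its weights were 0.214 to Sevir.2G437800, 0.210 to Sevir.2G336300, 0.206 to Sevir.8G175000 and 0.202 to Sevir.3G070400. Between the factors and the trehalose genes, the 50 pairs had a median of 0.162, against 0.143 over all core pairs. Among the 50 genes of highest connectivity, which include the trehalose genes and some of the factors, the median was 0.167. The heaviest pair of a factor and a trehalose gene joined the phosphatase Sevir.1G330000 to the *PUCHI*-type gene Sevir.2G437800 at 0.211. The trehalase Sevir.9G356700 and Sevir.9G095600 followed at 0.203.

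Flowering and meristem terms were annotated to 9 core genes (9.18%), against 34 other cyan genes (6.50%) and 1469 genes of other modules (5.95%). In 3 of the 9 the term came from a reciprocal best hit. These were Sevir.9G576100 and Sevir.2G437800, above, and Sevir.1G311000, at rank 81, whose best hit AT5G16000 (*NIK1*) is a receptor-like kinase of Arabidopsis. The remaining genes of the group were Sevir.1G257800, Sevir.2G336300, Sevir.8G255750, Sevir.7G125200, Sevir.3G265900 and Sevir.8G128400. Sevir.2G209800 is not among the 9, since the group did not include its terms for floral organ identity and carpel development. Leaf and organ polarity terms, which overlap with these, were annotated to 4 core genes (4.08%) and to 12 other cyan genes (2.29%).

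Cell wall terms were annotated to 10 core genes (10.2%), against 16 other cyan genes (3.06%) and 1258 genes of other modules (5.10%). The group held Sevir.7G117000, whose best hit AT1G71380 is an endoglucanase, an enzyme that cuts glucan chains of the wall, and Sevir.1G276800, whose best hit AT2G46710 restrains the ROP GTPases that steer cell growth. It also held regulators, among them Sevir.9G576100 and Sevir.9G095600, and the synthase Sevir.3G180900, so that not every member builds or loosens a wall. Cell wall organization was annotated to 5 core genes and 6 other cyan genes.

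Carbohydrate metabolism was annotated to 8 core genes (8.16%), against 13 other cyan genes (2.49%) and 917 genes of other modules (3.72%). The synthase and the 3 phosphatases described above account for 4 of the 8. Among the 50 genes of highest connectivity the share was 14.3%, and among the 200 highest it was 4.57%. Dephosphorylation was annotated to 5 core genes, the 3 phosphatases among them, and to 6 other cyan genes. Among the 49 terms carried by at least 5 core genes, it had the largest ratio to the genes of other modules, at 5.10% against 0.786%. That filter admits only terms frequent in the core, and dephosphorylation stands at its limit of 5 genes.

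Transport across membranes was annotated to 5 core genes (5.10%), against 5 other cyan genes (0.956%) and 546 genes of other modules (2.21%). Sevir.4G158100, at rank 65, has the auxin efflux carrier *PIN2* (AT5G57090) as its best hit. Auxin efflux carriers direct the auxin flow that marks where new primordia form. Sevir.6G097400 carries the signature of xanthine and uracil permeases, Sevir.8G023200 that of the major facilitator family and Sevir.2G250900 that of ABC transporters. Sevir.5G130200, whose best hit AT5G39890 is a plant cysteine oxidase that senses oxygen, is an enzyme, although its terms place it in this group. Conversely, the group left out Sevir.9G182100 and Sevir.6G192400, which carry signatures of the MATE family of efflux carriers. The shares thus count annotated terms rather than transporters. Proteolysis was annotated to 6 core genes (6.12%), against 13 other cyan genes (2.49%) and 746 genes of other modules (3.02%), and 2 of the 6, Sevir.7G029200 and Sevir.5G017800, were among the 10 genes of highest connectivity.

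Hormone response was among the 10 groups in which the core was lower than the rest of cyan, with 4 genes (4.08%) against 47 other cyan genes (8.99%) and 1720 genes of other modules (6.97%). Among the 200 genes of highest connectivity the order turned, at 8.63% against 8.02% of the rest of cyan. The 4 genes were Sevir.9G095600, Sevir.4G158100, Sevir.1G311000 and Sevir.7G321300. The cytokinin-type gene Sevir.9G041600 and the brassinosteroid-annotated genes Sevir.8G175000 and Sevir.5G241500 carry synthesis or signalling terms that the group did not include. No core gene was annotated to mRNA processing, against 5 other cyan genes (0.956%) and 573 genes of other modules (2.32%). None was annotated to autophagy, against 2 other cyan genes (0.382%) and 91 genes of other modules (0.369%). At shares this small, an absence from 98 genes is not read as a trait of the core.

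**Figure D4:**
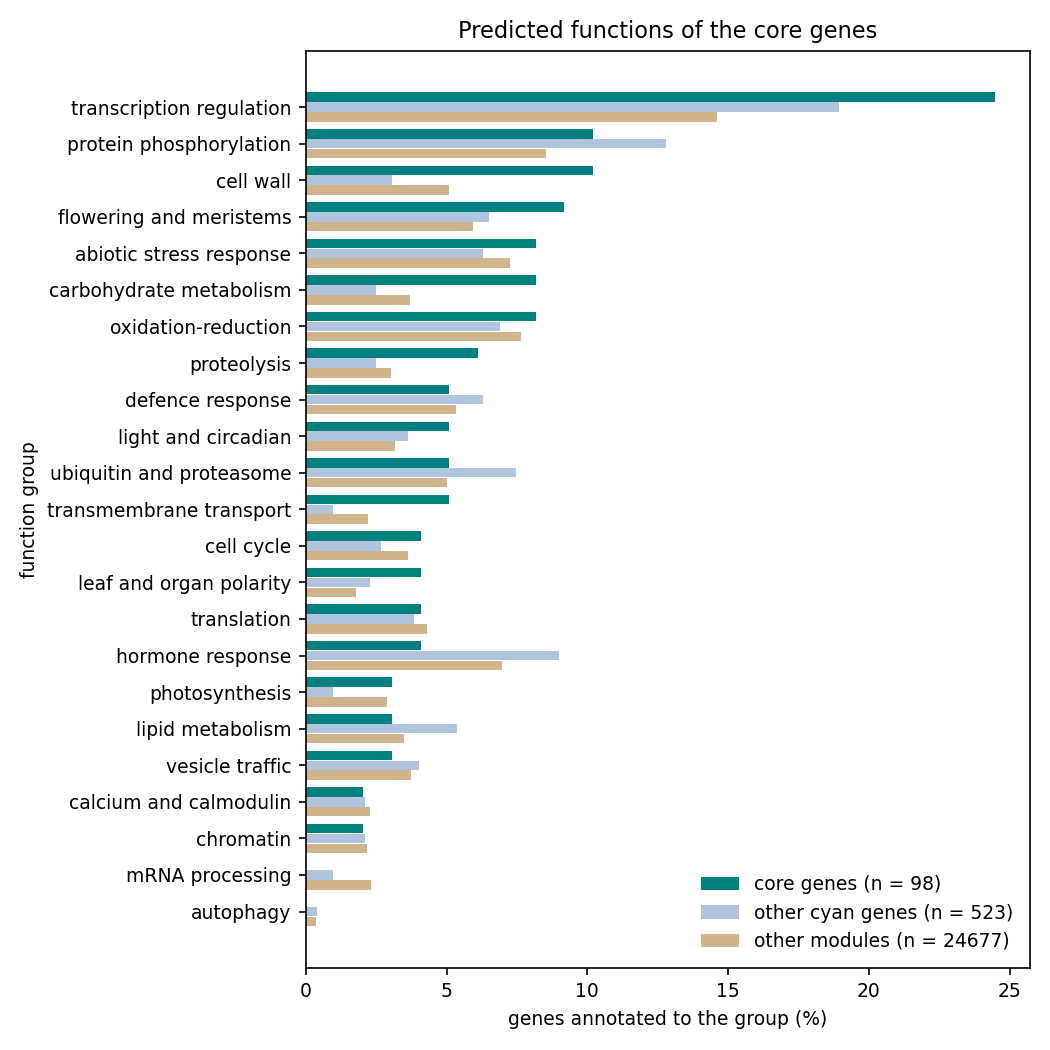
Share of genes annotated to each of 23 function groups (x axis, percent) among the 98 core genes, the other 523 cyan genes and the 24677 genes of other modules. Transcription regulation is the largest group of the core at 24.5%, and the core exceeds both other sets for cell wall, carbohydrate metabolism, transmembrane transport and proteolysis, while its hormone response share is below both.

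Pairs within a function group were not uniformly heavier than the core median of 0.143. The median weight was 0.161 within transcription regulation and 0.153 within carbohydrate metabolism, but 0.136 within cell wall, 0.129 within flowering and meristems, 0.125 within transmembrane transport and 0.120 within light and circadian. Weights also rise with connectivity, and among the 50 genes of highest connectivity the median of a pair was 0.167.

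Over the 23 groups, the share of the core was above that of the other cyan genes in 13 and below it in 10. It was above both other sets in 12. Most groups held fewer than 10 core genes, so that a change of 1 or 2 genes moves a share visibly, and a gene may stand in several groups. At least 1 group held 75 of the 98 core genes (76.5%), against 349 of the other cyan genes (66.7%) and 15397 genes of other modules (62.4%). The other 23 core genes stood in none. Reciprocal best hits were named for 34 core genes (34.7%), 194 other cyan genes (37.1%) and 11349 genes of other modules (46.0%).

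Of the 49 GO terms carried by at least 5 core genes, the 10 with the largest ratio of shares to the other cyan genes were RNA binding (5 core and 6 other cyan genes), dephosphorylation, cell wall organization, response to cadmium, cell differentiation (5 and 9), proteolysis, vacuolar membrane (5 and 12), kinase activity (5 and 12), phosphorylation (8 and 20) and chloroplast (14 and 37). These counts are out of 98 core and 523 other cyan genes. Since terms entered only when frequent in the core, the filter itself raises the largest ratios. Against the genes of other modules, dephosphorylation, cell wall organization, response to cadmium, phosphorylation and transcription factor activity led, and RNA binding fell to rank 34 of the 49, at 5.10% of the core and 4.67% of other modules. Kinase activity was at rank 7, proteolysis at 10 and cell differentiation at 13. Vacuolar membrane was at rank 17, at 5.10% against 2.90%, and chloroplast at rank 21, at 14.3% against 10.2%. The most common term of all, integral component of membrane, was carried by 46 core genes (46.9%), 268 other cyan genes (51.2%) and 10834 genes of other modules (43.9%).

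Some further core genes have a clear best hit, and several of them also stand in the groups above. Sevir.1G324100 is counted in carbohydrate metabolism, Sevir.3G307000 in leaf and organ polarity and Sevir.9G133900 in dephosphorylation. Sevir.9G133900 (AT5G15070) is of the type that makes inositol pyrophosphates, signals of phosphate status. Sevir.5G345000 (AT4G21534) is of the sphingosine kinase type. Sevir.3G307000 (AT1G09340) matches a chloroplast RNA-binding protein and Sevir.1G324100 (AT1G18730) a subunit of the chloroplast NDH complex. Sevir.3G014200 (AT1G26700) is of the MLO family of membrane proteins, and Sevir.9G182100 (AT3G21690) of the MATE family of efflux carriers. Response to cadmium was annotated to 9 core genes (9.18%), against 11 other cyan genes and 780 genes of other modules (3.16%). The 3 T6P phosphatases were among those 9.

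Most of the weight of the core genes lay outside their own module. Summed over the 98 genes, 17.1% of the weight went to cyan partners and 82.9% to other modules. Turquoise, the largest module with 3909 genes, took 46.0%, yellow 10.0%, brown 7.47%, midnightblue 5.57%, tan 4.44%, grey60 4.40% and lightgreen 2.95%. Each of the other 18 modules took under 1%, and 4 had no listed edge to the core. For every one of the 98 genes, turquoise was the largest recipient outside cyan. The other cyan genes divided their weight in a like way, with 18.9% to cyan and 43.1% to turquoise.

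The size of turquoise bears on these sums, so that the share of possible pairs was also counted. Of the pairs between core genes and turquoise genes, 66.4% were listed, against 27.1% for the other cyan genes. For grey60, a smaller module with 376 genes, the share was 67.0%, against 28.6%, and for midnightblue 52.8%, against 20.5%. Core genes were selected for high summed weight and had more listed edges over all modules, with a median of 5411 against 2093. These contrasts with the other cyan genes therefore partly restate the selection. Between the core and the 100 most connected genes of midnightblue, 95.2% of pairs were listed with a median weight of 0.0665. With the 100 of turquoise the values were 93.1% and 0.0622, and with the 100 of yellow 84.0% and 0.0445. Few pairs with pink and blue were listed, 0.438% and 0.557% for the core and 0.332% and 0.349% for the other cyan genes. The core shares for black, green and purple were lower, at 0.373%, 0.167% and 0.217%. Those of the other cyan genes were 0.279%, 0.730% and 0.314%, so that the core lay below them for green and purple. The core had no listed edge to magenta, the module that holds *SvFul4*, against 0.0115% of pairs for the other cyan genes.

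**Figure D5:**
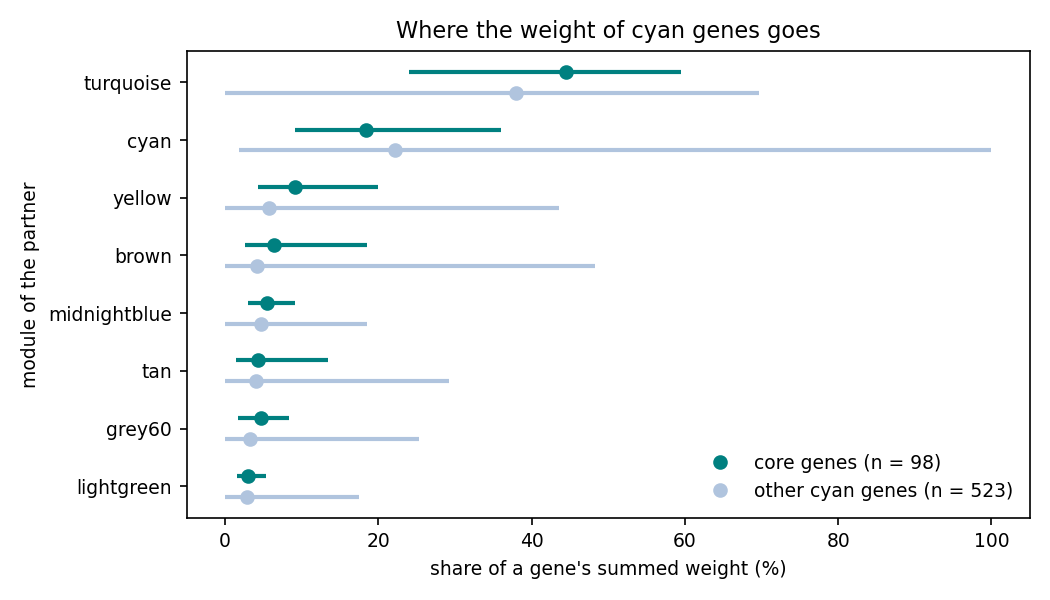
Share of each gene's summed weight (x axis, percent) that goes to partners in each of 8 modules (y axis), as the median (point) and the range from lowest to highest (line) over the 98 core genes and the other 523 cyan genes. Turquoise takes a median of 44.4% of a core gene's weight and cyan itself 18.4%.

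Core genes differed in how far they leaned outward. The share of weight outside cyan ran from 64.0% to 90.9% with a median of 81.6%. The lowest shares were those of Sevir.9G259100 (64.0%), Sevir.5G443900 (65.4%) and Sevir.7G125200 (66.6%), the last of which is annotated to the vegetative to reproductive transition of the meristem. The highest were those of Sevir.8G082401 (90.9%), Sevir.8G106200 (90.4%) and Sevir.6G255500 (90.4%), another gene annotated as a serine carboxypeptidase. Across the 98 genes the share outside showed little relation to connectivity (Pearson r = 0.03, Spearman rho = -0.04). These are values across genes of the same network, which share partners and are not independent.

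The transcription factors spanned much of this range. Sevir.9G576100 and Sevir.2G375900 had 88.4% and 88.2% of their weight outside cyan, and Sevir.7G233300 had 68.6%. Turquoise took 53.8% of the weight of the *REVOLUTA*-type gene Sevir.9G576100, against 26.97% for the *WRKY35*-type gene Sevir.7G233300. The trehalose genes lay at 83.3% for Sevir.1G330000, 73.7% for Sevir.9G356700, 73.2% for Sevir.2G407500, 71.6% for Sevir.3G180900 and 70.0% for Sevir.4G091700. Sevir.1G330000 was thus the only one of the 5 above the core median of 81.6%.

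Individual genes leaned to particular modules. Sevir.6G142000 gave 18.5% of its weight to brown, the module of *SvFul2* and *SvFul3*, against a core median of 6.34%. Sevir.7G321300, a kinase by its signature, gave 19.97% to yellow, against a median of 9.06%. Sevir.6G014600 gave 13.4% to tan, against a median of 4.27%.

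The links of the core to the genes at the centre of the study differed widely. *SvFul1* (Sevir.9G087300), a close relative of *SvFul2*, is itself a cyan gene at rank 427, and it was linked to all 98 core genes with a median weight of 0.0598. The heaviest of these edges was to Sevir.7G183600, at 0.0949. Of all pairs between core and other cyan genes, 93.9% were listed, with a higher median of 0.0711. *SvFul2* (Sevir.2G006400), of the brown module, was linked to 3 of the 98, with weights from 0.0201 to 0.0207. These weights lie at the lower end of the listed range. They include the phosphatase Sevir.2G407500 at 0.0207 and Sevir.4G089100 at 0.0201. *SvFul3* (Sevir.2G393300), also brown, was linked to 77 with a median of 0.0339, and *SvFul4* (Sevir.3G374401) to none. Of all pairs between the core and brown genes, 22.3% were listed, and between the core and magenta genes none.

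Of the meristem genes, the homolog of maize *knotted1* (Sevir.9G107600), which keeps meristem cells undifferentiated, was linked to 87 core genes with a median of 0.0358. The homolog of *fasciated ear4* (Sevir.4G119100), which limits meristem size in maize, was linked to 89 with a median of 0.0352. Both are tan genes, and 37.3% of all pairs between the core and tan genes were listed. *SvRa2* (Sevir.5G116100), whose maize counterpart *ramosa2* gives determinacy to branch meristems and which is also tan, was linked to 13, with its heaviest edge of 0.0374 to Sevir.6G014600. The phosphatase Sevir.4G091700 was among those 13, at 0.0240. The magenta genes *SvMads51* (Sevir.5G438700), *SvSid1* (Sevir.2G093800) and the *indeterminate spikelet1* gene (Sevir.9G034800) had no listed edge to the core, as was so for the whole module.

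The core genes were spread over the 9 chromosomes. Chromosome 9 held 17 (17.3%), against 18.0% of the network's genes, and chromosome 2 held 15 (15.3%), against 12.7%. Chromosome 8 held 11 (11.2%), against 32 of the other cyan genes (6.12%) and 5.74% of the network's genes. In the order of locus numbers, 8 of the 98 had another core gene within 10 loci, in 4 pairs that were all next to each other. The pairs were Sevir.9G232433 with Sevir.9G232466, Sevir.9G259100 with Sevir.9G259200, Sevir.4G089000 with Sevir.4G089100, and Sevir.8G255750 with Sevir.8G255800. Their weights were 0.200, 0.185, 0.154 and 0.156, of which the first exceeded 97.4% of all core pairs. Reads that map to both genes of such a pair were not examined here. Of the other cyan genes, 153 of 523 had a cyan neighbour outside the core within 10 loci, a share that rises with the size of the set and is not comparable with the 8 of 98.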

How the data were processed

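The deposited tables were used, in which the authors had pooled all samples of a wild-type network. The authors quantified transcripts with Salmon 0.13.0 after trimming with cutadapt (processing notes) and joined genes in a signed WGCNA network. As deposited, each edge weight is a topological overlap score, and the edge list holds 43548751 pairs with weights from 0.0200 to 0.393. Absent pairs were counted as not listed, with a weight of 0 in the tree. The deposited node list gives each gene a module label. It holds 25298 genes in 26 modules, fewer genes and modules than the paper reports for its network. Shares of the network and of other modules are over this list. The authors' GO file was made with the GOMAP pipeline, which predicts terms from sequence, and the 678 rows with a NOT qualifier were left out.

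No column held a single sample, so depth and precision are unknown, and no test, p-value or interval could be computed. Connectivity, the share of listed pairs, medians and annotation counts were computed with Python 3.11.15, numpy 2.4.6, pandas 2.3.3 and scipy 1.17.1, and the functions were checked on simulated data. The other cyan genes include the loci left out by the selection. Named genes were the 10 of highest connectivity, those of the 5 heaviest edges, up to 10 annotated to transcription factor activity or sequence-specific DNA binding, up to 5 with a flowering or meristem term from a reciprocal best hit, the 3 lowest and 3 highest in weight outside cyan, and those beside the edge of the core. Genes listed beyond this rule were chosen after their values were seen. The genes and the 23 function groups, of 102 GO terms, were chosen with earlier results of these data known. Alternatives were another ranking of genes, a higher weight limit, other core sizes, sourced GO terms and a wider neighbour window. Promoter motifs and protein lengths were not analysed here, since no sequence table was used, and the RefSeq gene table used names no Sevir locus.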

Additional observations from a re-analysis of the deposited data

How the results depend on the processing

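Of the 98 core genes, 87 stayed among the 100 highest when genes were ranked by the number of listed cyan edges, 97 with only weights of at least 0.04 and 92 by the median listed weight, but 57 when edges to all modules were summed. The share of core edges outside cyan was 89.4% by number of edges and 78.8% with only weights of at least 0.04, against 82.9% of the weight. With a window of 20 loci, 14 core genes had a core neighbour, against 8. All core pairs stayed listed at a limit of 0.04 and with 50 genes. Neither could have turned out otherwise, since the lowest core weight was 0.0755 and the 50 genes are part of the core. With 200 genes, all pairs were listed as well. The number of function groups higher in the core than in the rest of cyan ranged from 9 to 18 over 5 alternatives, against 13. Of 115 comparisons of a group under an alternative, 99 kept the side of the difference and 16 turned. Cell wall, carbohydrate metabolism, transmembrane transport and proteolysis were higher in the core under all 5. So were flowering and meristems, leaf and organ polarity, cell cycle and abiotic stress response. Of 5 alternatives chosen after seeing the data, 4 left the count of trehalose genes at 5, and summing edges to all modules left 1. The counts with 50 or 200 genes were fixed in advance. The 5 genes lie at ranks 3 to 37, and the next trehalose gene of cyan lies at rank 205. No paired analysis was possible because no column held a single sample. The motif alternative was not run.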
